A study of Homo sapiens with 12 samples.

Results

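The 32 genes described here encode regulators of the tumour suppressor p53 and products of genes that p53 switches on. They were taken by symbol from the 53361 rows of the deposited gene table, without CDKN1A and the BCL2 family, and each symbol had 1 row. Expression was measured by RNA sequencing in hTERT-RPE1, a telomerase-immortalised line from the human retinal pigment epithelium, which is the shared background of all 4 groups. The 3 control libraries came from untreated cells, for which the labels name neither a vehicle nor a time. The 3 reversine libraries came from cells that received 0.5 µM of this inhibitor of the mitotic checkpoint kinase TTK (Mps1) for 24 h, were washed and were collected 48 h afterwards. The 3 BafA1 libraries came from cells given 0.1 µM bafilomycin A1, a blocker of lysosomal acidification, for 6 h, and the 3 MG132 libraries from cells given 1 µM of that proteasome inhibitor for 24 h. Agent, exposure time and solvent therefore cannot be told apart in a difference from control.

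p53 is a transcription factor. In unstressed cells the ubiquitin ligase MDM2 marks it for destruction by the proteasome, and the related protein MDM4 holds down its activity. When this control is relieved, p53 binds DNA as a tetramer at paired copies of a short half-site and raises genes for cell cycle arrest, DNA repair, cell death and metabolism, MDM2 itself among them. Some of these genes also answer to other regulators: SESN2 and TNFRSF10B, for example, are known targets of the ATF4 and CHOP factors of the integrated stress response.

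All values are FPKM: fragments counted on a gene, divided by transcript length and by the mapped reads of the library. Differences are between group means of log2(FPKM + 1), which understates changes of genes with low values, and a gene was called at a limma p below 0.05 after adjustment over 30712 tested genes. The read depth is unknown. Estimated from the lowest values per length, it ranged from 0.62 to 1 relative to the deepest library. GC slopes were fitted after a gene's average across all libraries had been subtracted from its log2(FPKM + 1). They compare libraries with one another, so falling slopes in some entail rising slopes in others. In 4 libraries (reversine 1, BafA1 3, MG132 2 and MG132 3) these centred values fell with the GC content of the transcript. Their slopes were −0.083 to −0.444 on the log2 scale per 10 percentage points, against 0.074 to 0.2 in the other 8. That trend was measured over genes averaging 1 FPKM or more with transcripts of at least 500 nt, a choice made after seeing values. Over all tested genes with a GC content, the slope was 0.236 in MG132 2 and 0.203 in MG132 3, so the 4 libraries did not stand apart there. The highest slope on that measure was that of control 3, at 0.562. Control 3 also had 9118 gene rows at 0, MG132 2 and MG132 3 had 10150 and 9689, and the other libraries 889 to 4240. By the depth estimate, control 3 was the deepest library and BafA1 2, with 1623 rows at 0, the shallowest. The estimate and the rows at 0 thus go against each other, and the depth range is uncertain. Every comparison with control uses control 3. Of 9 pigment epithelium markers, RPE65 was at 0.04 to 0.06 FPKM over the libraries and TYR at 0.38 to 0.62, RLBP1, BEST1 and TYRP1 at 0.86 to 2.81, SERPINF1 and PMEL at 3.30 to 6.52, and MITF and OTX2 at 9.29 to 20.32. None of the 7 tested was called, and the epithelial keratin KRT8 stood at 749 to 933 FPKM in controls. KRT8 fell with MG132 (−1.29, limma adjusted p = 0.00427), as did KRT18 (−1.14, limma adjusted p = 0.000172), and the part of cell state in the other MG132 results was not tested. In such bulk samples, fewer cells expressing a gene and less RNA per cell cannot be told apart.

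After reversine, 6 of the 32 genes rose and 0 fell, against 2.09% of all tested genes called, 0.801% upward and 1.29% downward. The 6 were BTG2, TP53INP1, SESN2, SESN1, DRAM1 and FDXR, by 1.36 to 2.13 on the log2 scale. For 30 of the 32 the difference was above 0, with a median of 0.73 against 0.09 over all genes, and in 20 every reversine library stood above every control (9.97% of all genes did), while in 1, GADD45B, all stood below (10.1%). At an unadjusted p under 0.05, 18 genes were higher and 1 was lower, against 3627 of all 30712 genes in either direction. All 6 calls depended on a spread shared by the 4 groups. A limma fit of reversine and control alone called 0 of the 32 and 0.0358% of all genes. It gave the 6 genes adjusted p-values of 0.0772 to 0.264. At an unadjusted p under 0.05 in that fit were 16 of the 32, all higher, and 3004 of all genes. Median-ratio scaling, as planned, called 5 of the 32 (1.42% of all genes), and a version of it chosen after seeing those counts called 7 (2.11%).

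After BafA1, TP53INP1 alone was called, at 1.34 above control, against 0.264% of all genes called, 0.202% upward and 0.0619% downward. The median of the 32 differences was −0.05, against 0.14 over all genes, and 13 were above 0. At an unadjusted p under 0.05, 1 gene was higher and 3 were lower, against 2186 of all 30712 genes in either direction. In 4 genes all BafA1 libraries lay above the controls (15.7% of all genes did) and in 3 below (7.42%). The fit of these groups alone called 0 (0.0619% of all genes), as did both scalings (0.137% and 0.264%). In these fits, in that order, 5, 4 and 5 of the 32 were at an unadjusted p under 0.05 in limma. Of all genes, 2855, 1573 and 2390 were.

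After MG132, 6 genes rose and 3 fell, against 14.8% of all genes called, 7.13% upward and 7.67% downward. SESN2, MDM2, GADD45A, DRAM1, TP53INP1 and TNFRSF10B rose by 0.85 to 2.54, and TP53I3, PLK2 and EI24 fell by 1.31, 1.26 and 0.90 on the log2 scale. The median difference was 0.48, against 0.04 over all genes. In 16 genes the MG132 libraries lay above all controls (20.3% of all genes) and in 7 below (13.5%). The count moved when 1 library was left out, as did that of all 30712 genes, 4548 with every library. It was 5 without any one control, MG132 2 or MG132 3, where 2435 to 2935 of all genes were called. Without MG132 1 it was 16, where 13044 of all genes were called. The fit of these groups alone called 4 (8.95% of all genes), without DRAM1, MDM2, PLK2, TNFRSF10B and TP53INP1, the planned scaling 6 (13.2%) and its later version 10 (17.3%). The comparisons share the same controls, so their values are set side by side below and not as independent results. Whether libraries of one group were grown as separate cultures is not stated in the labels, and the p-values cover only the spread among the libraries.

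**Figure D1:**
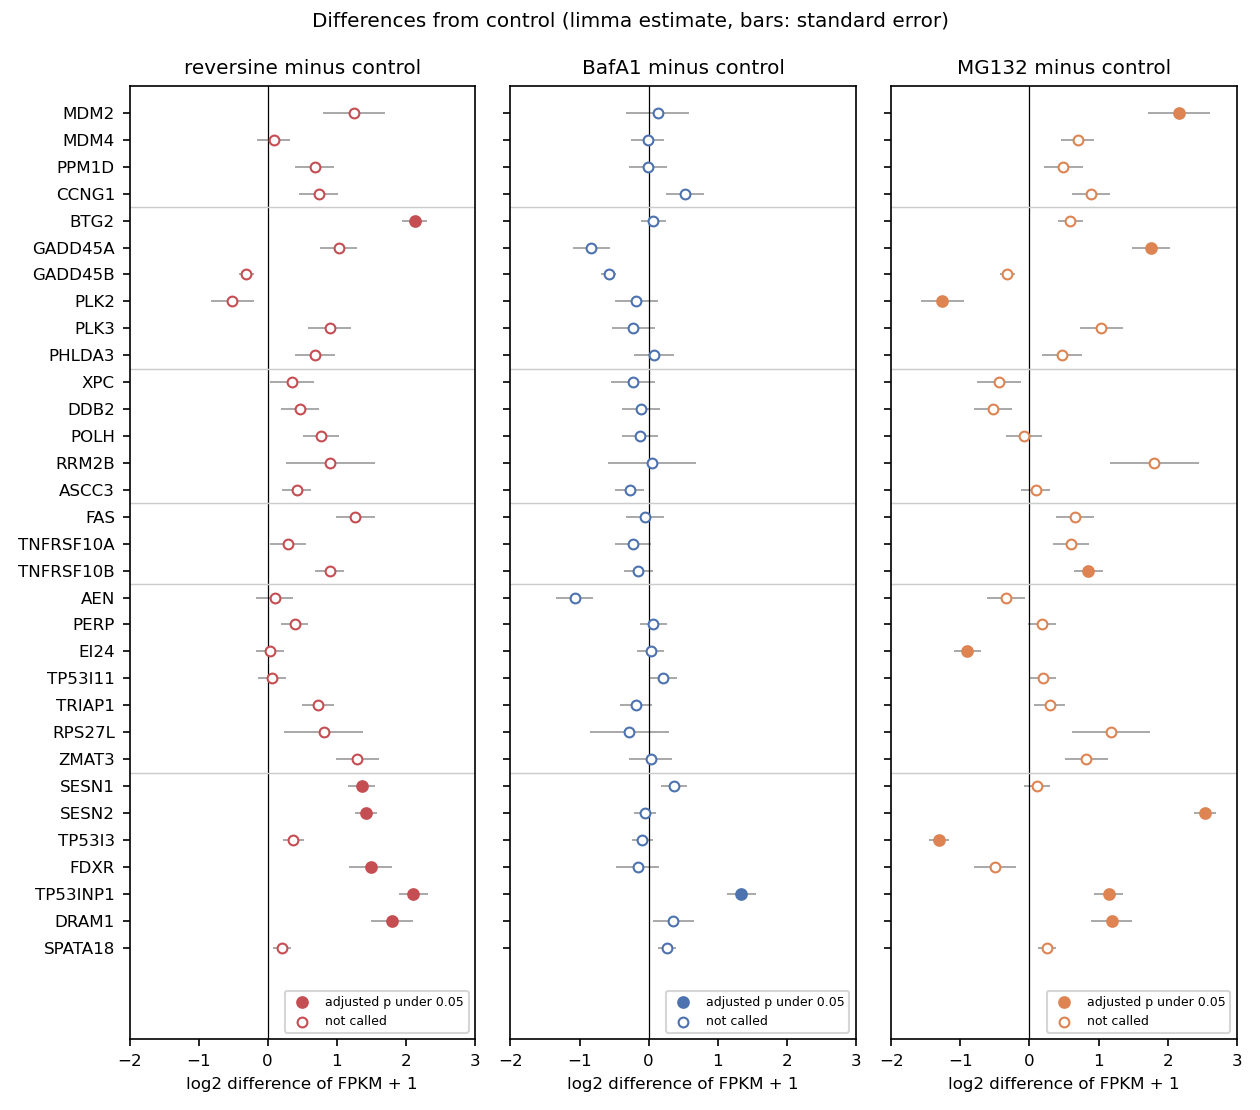
Log2 difference of FPKM + 1 from control (x axis) for each of the 32 genes (y axis, grouped by role) after reversine, BafA1 and MG132; points are limma estimates from 3 libraries a group, bars standard errors, and filled points have an adjusted p under 0.05. Filled points number 6 after reversine, 1 after BafA1 and 9 after MG132, 3 of these below 0.

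The promoters of the genes were searched for the sequence p53 binds. RefSeq promoter windows (GRCh38.p14, 250 bases before to 50 after a start site) were found for 25 of the 32 genes, 38 windows in all. A full site was taken as 2 copies of the p53 half-site consensus of 10 bases, 0 to 13 bases apart, with at most 2 mismatches in all. No mismatch was allowed at the C and the G that enclose the middle 2 bases of each half-site. The half-site is its own reverse complement, so both strands are read at once. Full sites lay in windows of 5 genes, 20% of those matched, against 3.62% of 27305 genes in the RefSeq table and 2.93% of its windows. The genes were listed as p53 regulators and targets, so a share above that of all genes is no independent result. A gene with more windows also has more chances of a match. The 25 matched genes had 38 windows, and the 27305 genes had 35116. Counting only the window that the table lists first for each gene, in its own order, it was 2 of the 25 matched genes, against 2.94% of all genes. With up to 3 mismatches, in any window, it was 10 of the 25, against 15.3%. These settings were tried on the same sequences and the reported one was picked afterwards. MDM2 has this site in 2 overlapping windows, of which 1 is printed. MDM2, DDB2, FAS and FDXR also have windows at other start sites that hold no full site. For each of the 5 genes 1 window is given below, 5′ to 3′ on the gene's strand, with the 2 half-sites in capitals. A match describes the letters and is no measure of binding, and many p53 sites lie outside windows of this length.

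Feedback on p53 is represented by MDM2, its partner MDM4, the phosphatase PPM1D (Wip1), which takes activating phosphates off p53 and its kinases, and cyclin G1 (CCNG1), which acts on MDM2 through a phosphatase. The 2 windows of MDM2 with a match are at the internal promoter from which p53 drives the gene. The site begins at position −94 from the start site of the window printed and at −101 from that of the other, with 2 mismatches and no spacer.
MDM2, chr12:68808767-68809066 (plus strand): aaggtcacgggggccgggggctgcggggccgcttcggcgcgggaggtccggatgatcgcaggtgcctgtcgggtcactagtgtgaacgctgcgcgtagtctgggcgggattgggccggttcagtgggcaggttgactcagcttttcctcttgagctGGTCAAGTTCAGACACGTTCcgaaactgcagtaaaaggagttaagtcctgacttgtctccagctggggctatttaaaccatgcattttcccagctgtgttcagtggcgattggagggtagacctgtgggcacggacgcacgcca
MDM2 stood at 30.7, 27.6 and 37.6 FPKM in the 3 controls, at 114, 63.1 and 62.4 after reversine, at 32.8, 30.9 and 41.8 after BafA1, and at 63.9, 208 and 233 after MG132. Both the reversine and the MG132 libraries were above every control, with 1 high library after reversine and 1 low library after MG132. The difference was 1.25 after reversine (SE 0.45, limma adjusted p = 0.282) and 2.17 after MG132 (SE 0.45, limma adjusted p = 0.0123). The MG132 call was lost without MG132 2 (limma adjusted p = 0.0571) or MG132 3 (0.0538). Without the 4 libraries named above, which leaves MG132 1 alone and assumed to vary like the other groups, the difference was 0.99 (limma adjusted p = 0.0592).

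None of the other 3 feedback genes was called by limma in any comparison with control. Over the 4 feedback genes, 3, 0 and 3 were at an unadjusted p under 0.05 after reversine, BafA1 and MG132. Of all 30712 tested genes, 3627, 2186 and 12582 were. CCNG1 stood at 43.8 to 50.6 FPKM in controls, while reversine gave 68.8 to 100, BafA1 58.6 to 84.3 and MG132 55.9 to 115, above the controls in all 9 treated libraries. PPM1D stood at 3.10 to 3.46 in controls, 4.71 to 8.37 after reversine and 3.53 to 6.07 after MG132. MDM4 lay between 3.53 and 4.63 in controls and between 5.30 and 8.80 after MG132, a difference of 0.70 (limma adjusted p = 0.0772), while its reversine values of 3.86 to 5.12 overlapped the controls.

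Among the 6 genes of arrest and growth control, BTG2, an antiproliferative cofactor of mRNA deadenylation, had the highest reversine difference of all 32 genes. It stood at 3.17, 3.26 and 3.12 FPKM in controls, 16.7, 17.1 and 18.0 after reversine, 3.59, 3.67 and 2.98 after BafA1, and 5.56, 5.61 and 4.79 after MG132. The 3 reversine libraries lay close together and far above the other 9. The difference from control was 2.13 (SE 0.18, limma adjusted p = 0.000569), and after MG132 it was 0.59 (SE 0.18, limma adjusted p = 0.0521). BTG2 was also higher after reversine than after MG132, by 1.53 (limma adjusted p = 0.00101).

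GADD45A, a stress protein that binds CDK1 and PCNA, stood at 78.6, 84.8 and 73.8 FPKM in controls. It was at 112, 194 and 196 after reversine, 51.3, 47.6 and 34.7 after BafA1, and 372, 233 and 228 after MG132. The BafA1 values lay below all controls and the values after the other 2 treatments above them. MG132 raised it by 1.76 (SE 0.27, limma adjusted p = 0.00244), a call kept in every alternative. The reversine difference was 1.03 (limma adjusted p = 0.102) and the BafA1 difference −0.83 (limma adjusted p = 0.472). Between treatments, GADD45A was 1.86 higher after reversine than after BafA1 (limma adjusted p = 0.0113), a call lost without reversine 2 (0.056) or reversine 3 (0.0511), and 2.60 higher after MG132 than after BafA1 (limma adjusted p = 0.00034).

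PLK2, a polo-like kinase of the S-phase checkpoint, stood at 756, 651 and 796 FPKM in controls, 323, 654 and 648 after reversine, 720, 649 and 581 after BafA1, and 447, 277 and 228 after MG132. All 3 MG132 libraries were below the controls, and reversine 1 stood apart from the other 2 of its group. The MG132 difference was −1.26 (SE 0.31, limma adjusted p = 0.0234), a call lost without any one control (0.0515 to 0.081), MG132 2 (0.0862) or MG132 3 (0.0931). Without the 4 libraries, which leaves MG132 1 alone, the difference was −0.71. Its relative PLK3, active in the stress checkpoint, was at 22.7 to 30.1 in controls, 34.6 to 63.9 after reversine and 41.5 to 76.8 after MG132, with a MG132 difference of 1.04 (limma adjusted p = 0.051). PHLDA3, which competes with AKT for membrane lipids, was at 125 to 133 in controls, 137 to 259 after reversine and 140 to 271 after MG132. GADD45B, a relative of GADD45A, was at 60.2 to 63.2 in controls and below that in all 9 treated libraries, at 40.1 to 55.4, without a call.

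None of the 5 genes of DNA repair and nucleotide supply was called against control by limma. At an unadjusted p under 0.05 were 1, 0 and 1 after reversine, BafA1 and MG132, against 3627, 2186 and 12582 of all 30712 genes. DDB2 and XPC recognise ultraviolet lesions, POLH copies past them, RRM2B is the p53-inducible subunit of ribonucleotide reductase, and ASCC3 is a helicase of alkylation repair. The printed DDB2 window holds the one full site without a mismatch, with 1 base between the half-sites. It begins at position 6 after the start site of that window.
DDB2, chr11:47214724-47215023 (plus strand): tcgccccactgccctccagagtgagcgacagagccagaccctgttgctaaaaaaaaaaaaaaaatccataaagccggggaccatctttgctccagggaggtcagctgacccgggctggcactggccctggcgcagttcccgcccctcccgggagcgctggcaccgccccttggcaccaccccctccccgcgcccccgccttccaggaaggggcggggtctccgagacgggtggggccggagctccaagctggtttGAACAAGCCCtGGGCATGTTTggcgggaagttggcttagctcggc
DDB2 stood at 2.79, 3.47 and 2.74 FPKM in controls, 6.07, 3.70 and 4.03 after reversine, 2.47, 1.84 and 4.15 after BafA1, and 1.16, 2.24 and 2.03 after MG132. All reversine values were above and all MG132 values below the controls, with differences of 0.47 and −0.53 (limma adjusted p = 0.505 and 0.176). POLH was at 8.55 to 13.6 in controls and 16.7 to 23.0 after reversine, a difference of 0.77 (limma adjusted p = 0.228). RRM2B had the widest spread of the group: after MG132 its 3 libraries were at 19.6, 34.5 and 139, and 1 control of 19.8 overlapped them. XPC was at 28.7 to 33.2 in controls, 26.6 to 49.4 after reversine and 19.2 to 26.8 after MG132. ASCC3 was at 11.8 to 17.3 in controls and 19.1 to 20.04 after reversine.

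The 3 death receptors carry death signals from ligands outside the cell: FAS binds Fas ligand, and TNFRSF10A and TNFRSF10B bind TRAIL. The printed FAS window holds 2 adjoining half-sites, with 2 mismatches, from position −122 relative to its own start site. The other FAS windows hold no full site.
FAS, chr10:88991181-88991480 (plus strand): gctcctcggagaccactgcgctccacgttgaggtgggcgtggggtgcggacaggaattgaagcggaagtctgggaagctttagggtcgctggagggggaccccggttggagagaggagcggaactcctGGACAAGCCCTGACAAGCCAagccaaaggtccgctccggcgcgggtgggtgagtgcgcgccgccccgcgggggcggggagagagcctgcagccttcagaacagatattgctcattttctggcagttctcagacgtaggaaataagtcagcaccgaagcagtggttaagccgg
FAS stood at 14.4, 15.6 and 11.9 FPKM in controls, 46.3, 30.0 and 30.4 after reversine, 11.4, 11.5 and 18.1 after BafA1, and 15.9, 25.1 and 28.6 after MG132. Every reversine library was above every control, but the difference of 1.27 (SE 0.28) missed the threshold (limma adjusted p = 0.0608). The MG132 difference was 0.66 (SE 0.28, limma adjusted p = 0.114).

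TNFRSF10B stood at 94.4, 77.2 and 97.5 FPKM in controls, 132, 199 and 179 after reversine, 81.2, 91.5 and 69.5 after BafA1, and 211, 145 and 138 after MG132. The reversine and MG132 libraries were all above the controls. Its differences were similar in size, 0.90 after reversine (SE 0.21, limma adjusted p = 0.0698) and 0.85 after MG132 (SE 0.21, limma adjusted p = 0.0252), and the direct difference between the 2 treatments was 0.05 (limma adjusted p = 0.845). The MG132 call was lost without any one control (0.0605 to 0.0803), without MG132 2 (0.0588) and with median-ratio scaling (0.181). TNFRSF10A was far lower, at 3.35, 4.28 and 3.96 in controls, 4.0, 6.56 and 4.51 after reversine, 2.58, 2.92 and 4.06 after BafA1 and 8.56, 5.00 and 5.98 after MG132. Only its MG132 libraries were all above the controls, by 0.60 (limma adjusted p = 0.115).

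**Figure D2:**
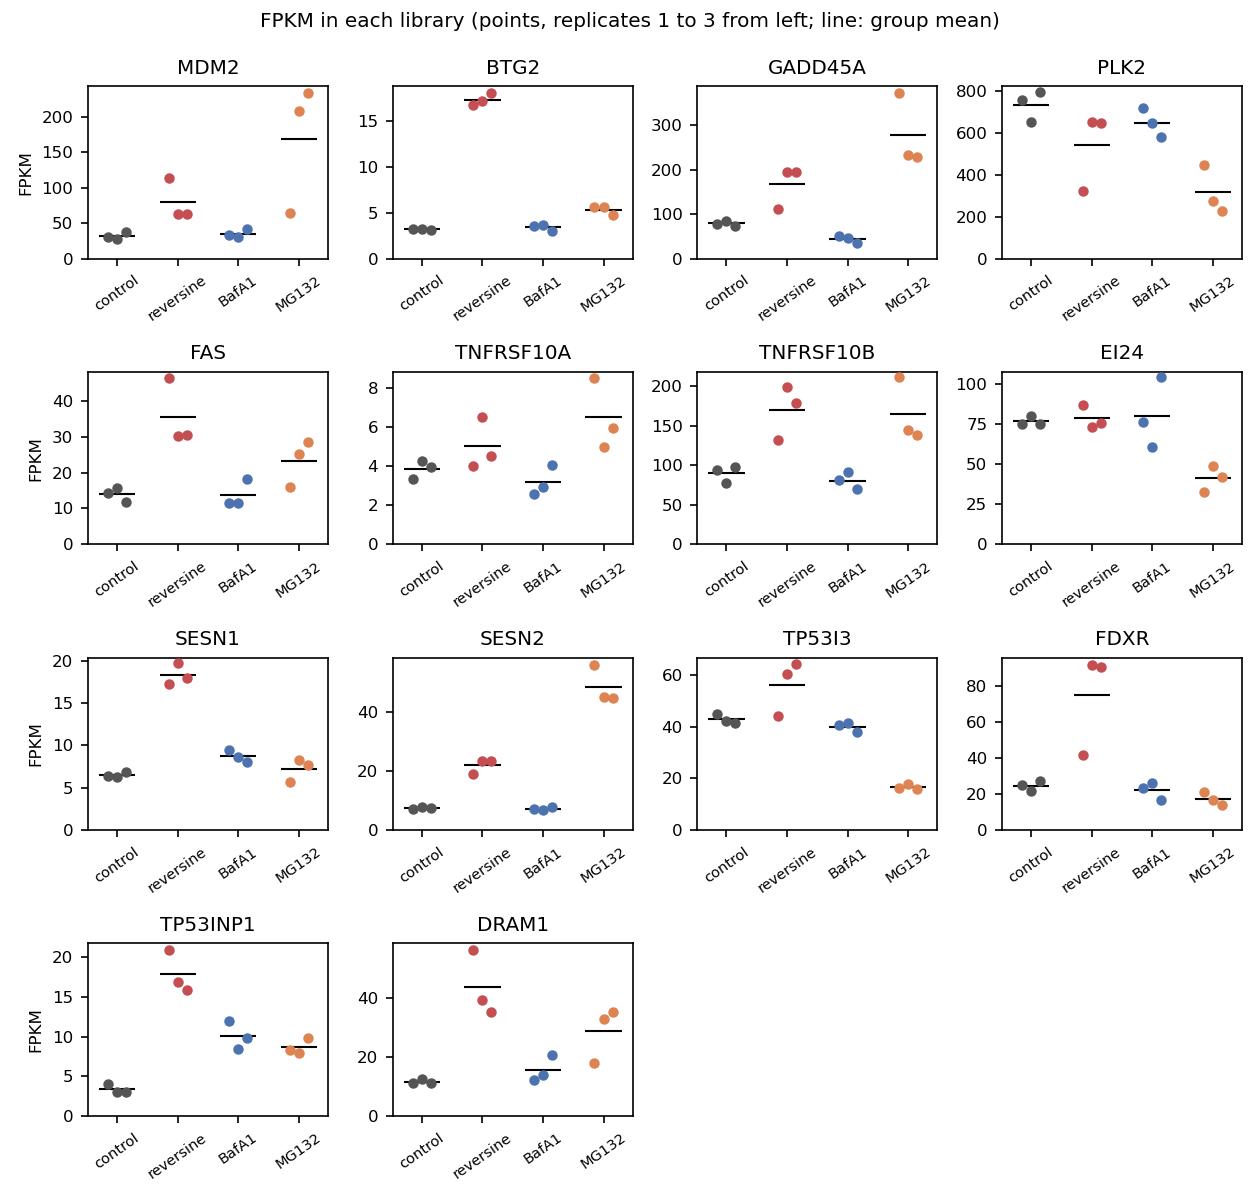
FPKM (y axis, from 0) in each library of the 4 groups (x axis) for the 12 genes called against control in at least 1 comparison and the other 2 death receptors; points are libraries 1 to 3 from left and lines are group means. BTG2 libraries after reversine lie at 16.7 to 18.0 FPKM, apart from all others, while MDM2 after MG132 spreads from 63.9 to 233.

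Of the 7 other genes of cell death and survival, EI24 was the only one called against control. That call came after MG132, where 14.8% of all genes were called, so 1 of 7 is near the share of all genes. EI24, a protein of the endoplasmic reticulum membrane that is needed for autophagy, stood at 75.1, 79.6 and 74.7 FPKM in controls, 86.7, 73.2 and 75.2 after reversine, 75.8, 60.2 and 104 after BafA1, and 32.8, 48.5 and 42.1 after MG132. It fell with MG132 in all 3 libraries, by 0.90 (SE 0.20, limma adjusted p = 0.0182), a call lost without any one control (0.0606 to 0.0623) or MG132 3 (0.0621). AEN is a nuclease of apoptotic DNA breakdown, and its promoter carries 2 adjoining half-sites from position −34, with 2 mismatches.
AEN, chr15:88621090-88621389 (plus strand): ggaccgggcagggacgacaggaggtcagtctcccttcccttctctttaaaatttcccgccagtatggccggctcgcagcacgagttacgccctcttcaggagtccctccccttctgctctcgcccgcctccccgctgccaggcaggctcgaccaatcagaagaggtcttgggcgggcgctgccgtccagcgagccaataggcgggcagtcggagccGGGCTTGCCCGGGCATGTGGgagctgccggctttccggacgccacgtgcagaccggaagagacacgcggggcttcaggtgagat
In controls AEN stood at 37.9 to 49.8 FPKM, against 34.0 to 58.4 for reversine, 18.0 to 25.0 for BafA1 and 28.9 to 50.0 for MG132. The BafA1 libraries were all below the controls, with a difference of −1.07 (SE 0.27, limma adjusted p = 0.29).

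ZMAT3, an RNA-binding zinc finger protein, stood at 6.00, 6.52 and 8.96 FPKM in controls and at 30.9, 17.7 and 12.1 after reversine, a difference of 1.30 (SE 0.31, limma adjusted p = 0.0755). Its MG132 libraries, at 11.88, 13.68 and 14.25, were also above every control, by 0.82 (limma adjusted p = 0.0974). TRIAP1, an inhibitor of apoptosis in mitochondria, was at 22.9 to 27.8 in controls and 38.5 to 48.7 after reversine. PERP, a membrane protein of desmosomes, was at 76.1 to 78.2 in controls and 85.6 to 124 after reversine. In RPS27L, a ribosomal protein relative, control 3 was at 153 and the other 2 at 72.1 and 83.9, so the reversine values of 115 to 294 overlapped the controls. The MG132 values of 91.6, 356 and 335 overlapped them too. The RPS27L differences were 0.81 after reversine and 1.18 after MG132 (limma adjusted p = 0.628 and 0.155). TP53I11 lay between 3.67 and 6.03 in all libraries.

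The 7 genes of metabolism, redox, mitochondria and autophagy held 5 of the 6 reversine calls. The sestrins SESN1 and SESN2 limit mTORC1 and oxidative damage, FDXR passes electrons from NADPH in mitochondria, TP53I3 is a quinone reductase, TP53INP1 and DRAM1 act in autophagy, and SPATA18 acts in mitochondrial quality control. SESN2 stood at 7.11, 7.84 and 7.53 FPKM in controls, 19.0, 23.4 and 23.3 after reversine, 6.98, 6.83 and 7.75 after BafA1, and 55.9, 45.1 and 44.5 after MG132. The libraries of the reversine and MG132 groups overlapped neither the controls nor each other. SESN2 rose by 1.43 after reversine (SE 0.16, limma adjusted p = 0.00245) and by 2.54 after MG132 (SE 0.16, limma adjusted p = 2.57e-05), and was 1.11 lower after reversine than after MG132 (the difference was −1.11, limma adjusted p = 0.00368). That last call was lost with median-ratio scaling (0.0786).

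SESN1 stood at 6.41, 6.31 and 6.87 FPKM in controls, 17.2, 19.7 and 18.0 after reversine, 9.48, 8.67 and 8.09 after BafA1, and 5.70, 8.27 and 7.63 after MG132. Reversine libraries were above the other 9, by 1.36 over control (SE 0.19, limma adjusted p = 0.0063). Against MG132 it was 1.25 higher (limma adjusted p = 0.00424) and the MG132 libraries overlapped the controls. The BafA1 libraries were all above the controls, with a difference of 0.37 (limma adjusted p = 0.545).

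TP53INP1 was called in all 3 comparisons with control. It stood at 4.03, 3.07 and 3.01 FPKM in controls, 20.9, 16.9 and 15.9 after reversine, 11.9, 8.48 and 9.77 after BafA1, and 8.36, 7.94 and 9.80 after MG132. No treated library overlapped the controls, and the reversine libraries were the highest. The differences were 2.11 (limma adjusted p = 0.0013), 1.34 (limma adjusted p = 0.0452) and 1.15 (limma adjusted p = 0.00634), each with an SE of 0.21. The BafA1 call was lost in 11 of 13 alternatives, among them the omission of any 1 of the 6 libraries (0.0997 to 0.234). The MG132 call was lost with median-ratio scaling (0.0578) and without the 4 libraries, which leaves MG132 1 alone.

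DRAM1 stood at 11.2, 12.4 and 10.98 FPKM in controls, 56.1, 39.1 and 35.1 after reversine, 11.96, 13.9 and 20.5 after BafA1, and 18.0, 32.9 and 34.96 after MG132. Reversine and MG132 libraries were above every control. It rose by 1.80 after reversine (SE 0.30, limma adjusted p = 0.0148) and by 1.19 after MG132 (SE 0.30, limma adjusted p = 0.0273). The reversine call was lost without any one control (0.0541 to 0.0806) or reversine 2 (0.055). The MG132 call was lost without any one control (0.064 to 0.0904), MG132 2 (0.115) or MG132 3 (0.117), and with median-ratio scaling (0.0683). It was also lost without the 4 libraries, which leaves MG132 1 alone and a difference of 0.60.

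The printed FDXR window holds 2 stretches counted as half-sites under the rule above, 10 bases apart, from position −31. Both of the 2 mismatches are the middle 2 bases of the first stretch, and only the second is an exact half-site.
FDXR, chr17:74872945-74873244 (minus strand): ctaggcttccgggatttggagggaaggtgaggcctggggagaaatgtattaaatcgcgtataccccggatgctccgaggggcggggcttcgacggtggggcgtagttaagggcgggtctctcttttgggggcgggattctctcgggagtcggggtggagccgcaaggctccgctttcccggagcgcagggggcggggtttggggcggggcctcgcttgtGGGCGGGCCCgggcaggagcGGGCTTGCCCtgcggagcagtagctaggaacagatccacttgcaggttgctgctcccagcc
It stood at 24.7, 21.8 and 27.1 FPKM in controls, 41.9, 91.7 and 90.2 after reversine, 23.1, 26.3 and 16.8 after BafA1, and 21.1, 16.5 and 13.9 after MG132. The reversine libraries were above the controls, with reversine 1 lower than the other 2, and the MG132 libraries were below them. FDXR rose by 1.49 after reversine (SE 0.31, limma adjusted p = 0.0478). The call was lost without any one control (0.109 to 0.177), reversine 2 (0.164) or reversine 3 (0.146), without the filter on low values (0.0788) and with median-ratio scaling (0.0734). Between treatments, it was 1.99 higher after reversine than after MG132 (limma adjusted p = 0.00547).

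TP53I3 stood at 44.8, 42.3 and 41.3 FPKM in controls, 44.3, 60.3 and 64.4 after reversine, 40.8, 41.5 and 37.8 after BafA1, and 16.2, 17.8 and 15.9 after MG132. The MG132 libraries lay together, far below the other 9. TP53I3 fell with MG132 by 1.31 (SE 0.15, limma adjusted p = 0.000542), a call kept in every alternative, and was 1.69 higher after reversine than after MG132 (limma adjusted p = 0.000268). SPATA18 was low throughout, at 1.57 to 1.77 in controls and 1.65 to 2.69 in treated libraries.

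Set directly against each other, reversine and MG132 differed in 7 of the 32 genes, against 6.51% of all genes, 3.52% higher after reversine and 2.99% lower. Higher after reversine were TP53I3, BTG2, SESN1, FDXR, TP53INP1 (0.96, limma adjusted p = 0.0274) and EI24 (0.93, limma adjusted p = 0.0275), and SESN2 was lower. The TP53INP1 call was lost without any one library except MG132 1 (0.0544 to 0.103) and without the 4 libraries (0.225). The EI24 call was lost without any one library except MG132 1 (0.0536 to 0.0968) and without the filter (0.0515). Reversine and BafA1 differed in 5 genes, against 1.23% of all genes (0.443% higher, 0.785% lower): BTG2 by 2.05, GADD45A by 1.86, FDXR by 1.65, SESN2 by 1.48 and SESN1 by 0.99, all higher after reversine. The FDXR and SESN1 calls were lost without any one BafA1 library, reversine 2 or reversine 3, FDXR at 0.0985 to 0.174 and SESN1 at 0.13 to 0.19, and without the filter (0.0766 and 0.055). FDXR lost it also with median-ratio scaling (0.0563), and SESN1 without reversine 1 (0.0715) or the 4 libraries (0.0963). MG132 and BafA1 differed in 7, against 10.8% of all genes (4.49% higher, 6.36% lower): SESN2, GADD45A, MDM2, PLK3 and TNFRSF10B were higher after MG132, and TP53I3 and EI24 lower. Of these, MDM2 at 2.03 lost its call without BafA1 1, BafA1 2, MG132 2 or MG132 3 (0.0747 to 0.0894) and was 0.98 without the 4 libraries (0.0857), PLK3 at 1.25 without any BafA1 library or MG132 2 (0.0559 to 0.107), with median-ratio scaling (0.0982) and without the filter (0.0522), TNFRSF10B at 1.00 without BafA1 1 (0.0532) or BafA1 3 (0.0543) and with median-ratio scaling (0.0996), and EI24 at −0.92 without BafA1 1 (0.0621) or MG132 3 (0.0677). Fits of the 2 treatments alone called 0, 1 and 3 of the 32 in reversine against BafA1, reversine against MG132 and MG132 against BafA1. Of all genes they called 0.00651%, 0.834% and 4.6%. In the fit of reversine and BafA1, 19 of the 32 were at an unadjusted p under 0.05 in limma, against 1976 of all genes.

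**Figure D3:**
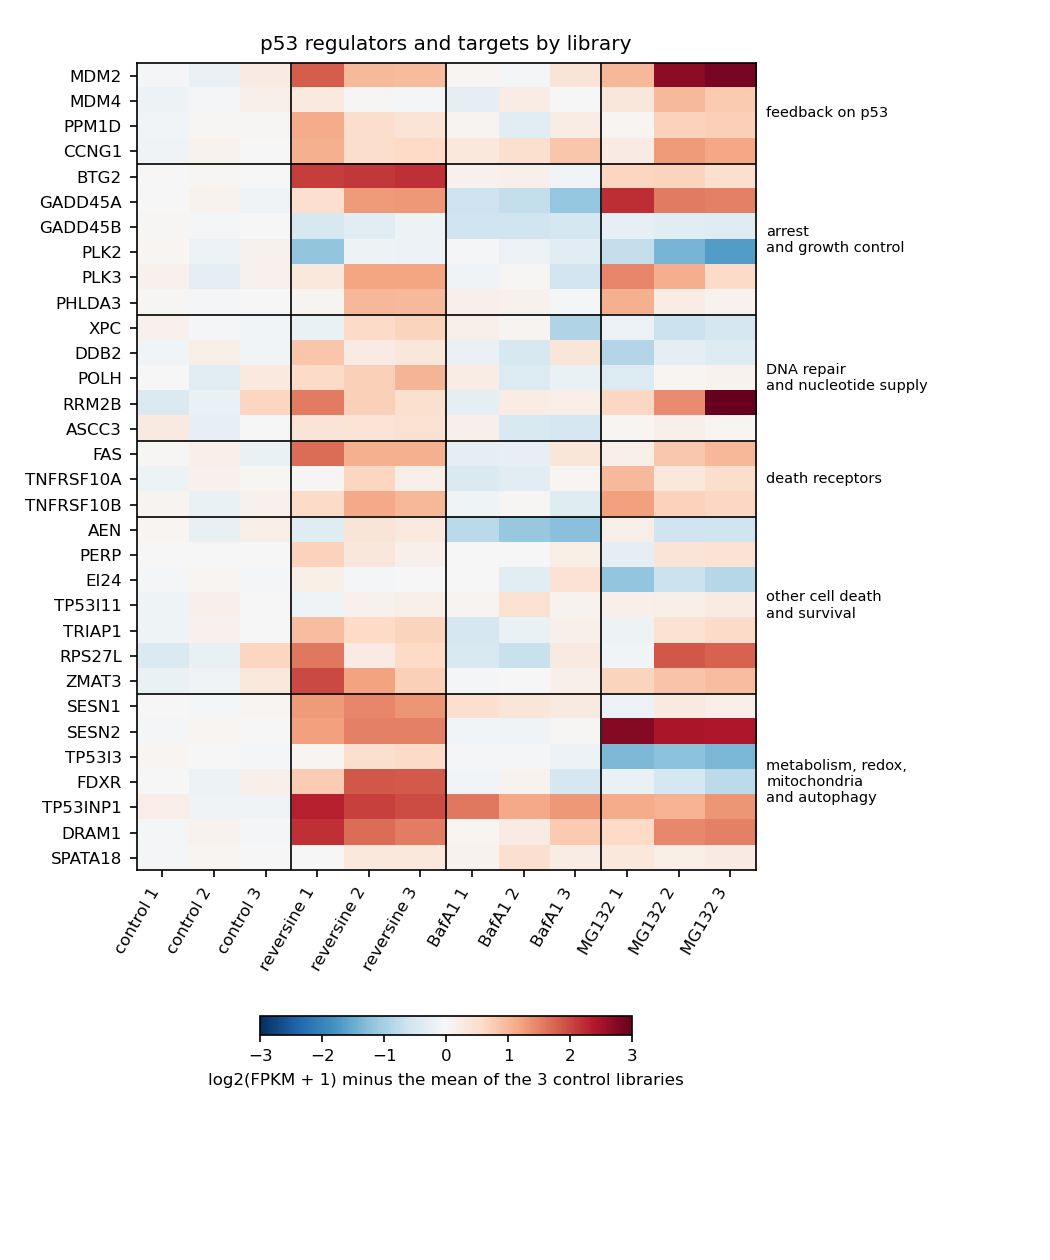
Log2(FPKM + 1) minus the mean of the 3 control libraries (colour) for the 32 genes (rows, by role) in the 12 libraries (columns). Reversine columns are red in most rows, with 30 of 32 group differences above 0, and MG132 1 differs from MG132 2 and 3 in rows such as MDM2 and RPS27L.

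Within a group, libraries differed along GC content for these genes too. In reversine 1, 10 of 13 genes with under 45% GC stood above the mean of reversine 2 and 3, by a median of 0.44, while all 9 genes with 55% GC or more stood below it, by a median of −0.71. In MG132 2 and 3, 12 of 13 low-GC genes stood above MG132 1 (median 0.69) and 7 of 9 high-GC genes below (median −0.45). Across the 32 genes, which share libraries and are no replicates, Pearson's r of this offset with GC content was −0.66 for reversine (Spearman's rho −0.63) and −0.67 for MG132 (rho −0.65). For BafA1 3 against BafA1 1 and 2, r was −0.42 (rho −0.38). MDM2 (40.7% GC) was high in reversine 1 and FDXR (63.6% GC) low in it, while PLK2 (42.8% GC) was low, by −1.01. The part of GC content in single genes' values was not tested.

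**Figure D4:**
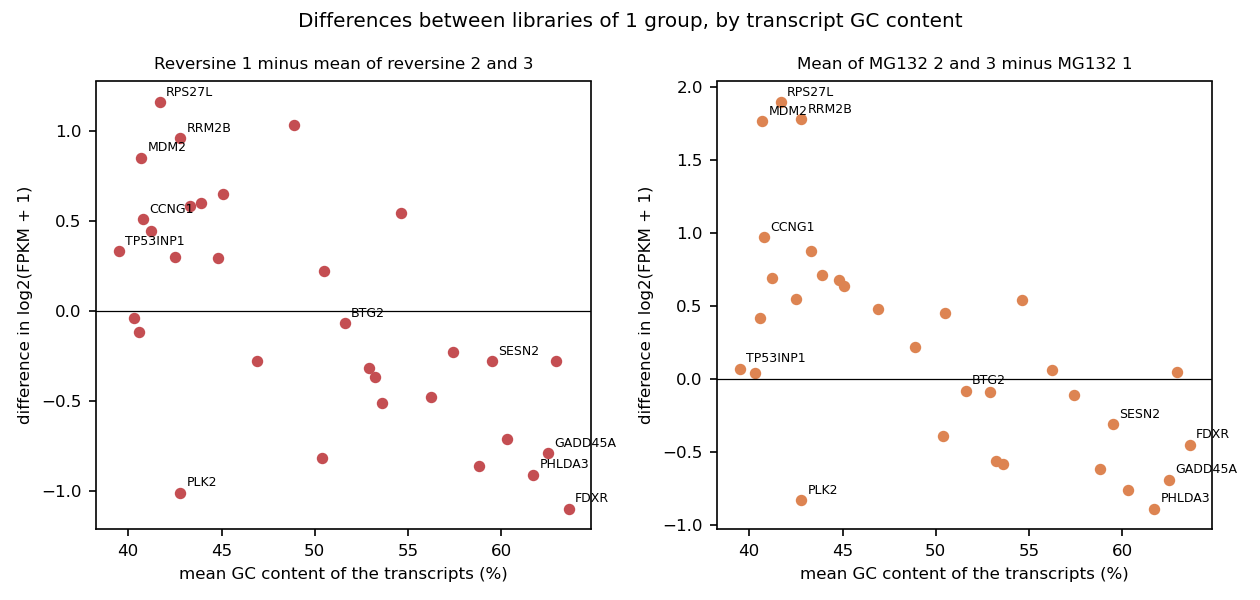
Difference in log2(FPKM + 1) between libraries of 1 group (y axis) against the mean GC content of the gene's transcripts in percent (x axis), 1 point a gene; left, reversine 1 minus the mean of reversine 2 and 3, right, the mean of MG132 2 and 3 minus MG132 1. Points fall from left to right in both panels, and PLK2 (42.8% GC) lies below the others of like GC content.

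When each library's dependence on GC content and length was removed, over 25349 genes, 15 of the 32 were called after reversine, all higher, against 4.35% of all genes, 1.87% upward and 2.49% downward. It kept the 6 named above and added FAS (1.23, limma adjusted p = 0.00673), CCNG1, GADD45A, PHLDA3, PLK3, TNFRSF10B, TP53I3, TRIAP1 and ZMAT3. Without the 4 libraries with the falling trend, which leaves 2 reversine libraries, 10 genes were called, all higher, against 2.59% (1.17% upward, 1.42% downward). After MG132 the correction called 12 genes, 9 higher and 3 lower, against 22.6% (11.0% upward, 11.6% downward), and leaving out the 4 libraries called 8, 5 higher and 3 lower, against 8.39% (3.13% and 5.26%). After BafA1, the correction called TP53INP1 higher and AEN lower, against 0.824% (0.497% upward, 0.327% downward), and without the 4 libraries limma called 0 (7 at an unadjusted p under 0.05), against 0.143% (0.101% and 0.0423%). Between treatments, the correction called 13 of the 32 in reversine against BafA1 (2.22% of all genes), 12 in reversine against MG132 (9.86%) and 13 in MG132 against BafA1 (15.9%).

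**Figure D5:**
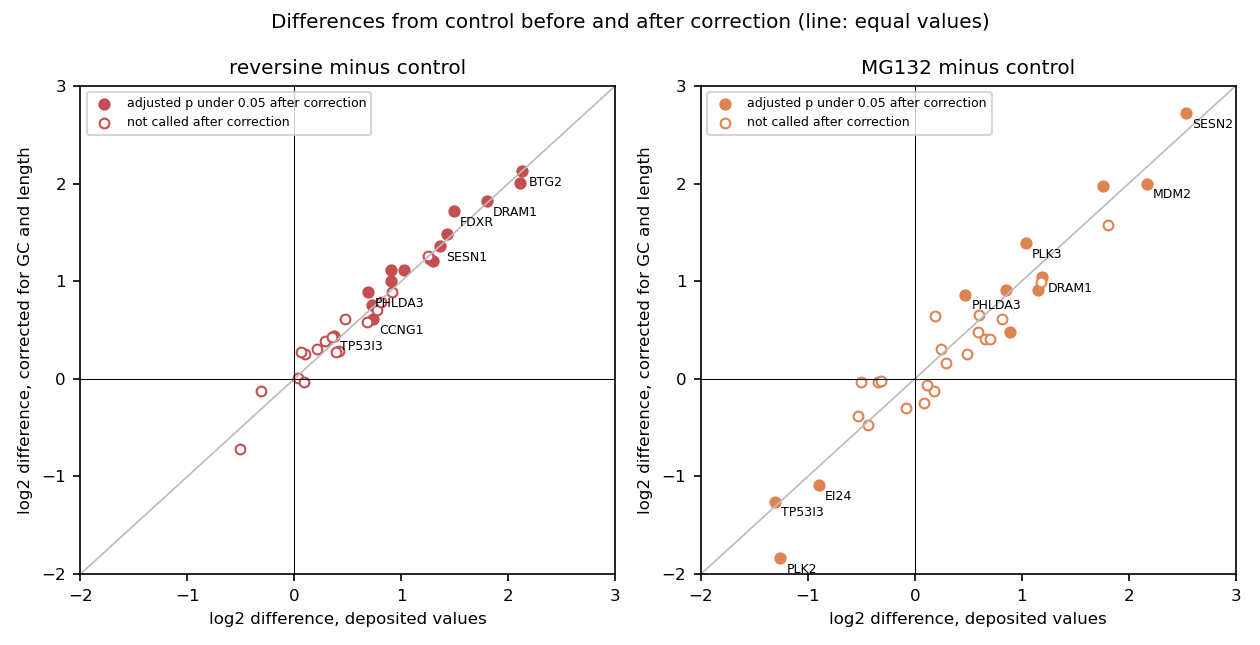
Log2 difference from control after correction for GC content and length (y axis) against that from the deposited values (x axis) for the 32 genes; filled points have an adjusted p under 0.05 after correction and the line marks equal values. Filled points number 15 for reversine and 12 for MG132.

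Lists of other pathway genes were counted in the same fit. Of 26 genes upstream of p53, the one call after reversine was TP73, a p53 relative. It fell by 1.26 (limma adjusted p = 0.00983, lost without control 3 at 0.0509). After BafA1 limma called 0 of the 26, with 3 at an unadjusted p under 0.05, against 2186 of all 30712 genes. After MG132, 1 rose and 5 fell. Of all genes, 2.09% were called after reversine, 0.264% after BafA1 and 14.8% after MG132, 7.13% upward and 7.67% downward. The p53-binding protein TP53BP1 rose with MG132 by 1.05 (limma adjusted p = 0.0014), lost without the 4 libraries (0.0673). TP73 fell by 1.82 (limma adjusted p = 0.000307) and CDKN2A, whose ARF product inhibits MDM2, by 2.92 (limma adjusted p = 0.00587).

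Of 42 tested further p53 targets outside the 32, 8 rose and 0 fell after reversine, 0 rose and 1 fell after BafA1, and 11 rose and 6 fell after MG132, with medians of 0.47, 0.06 and −0.06. Over all tested genes, 0.801% rose and 1.29% fell after reversine, 0.202% and 0.0619% after BafA1, and 7.13% and 7.67% after MG132, with medians of 0.09, 0.14 and 0.04. CDKN1A, which encodes the CDK inhibitor p21, stood at 215, 189 and 253 FPKM in controls, 618, 1198 and 1082 after reversine, 223, 199 and 156 after BafA1, and 762, 489 and 434 after MG132. It rose by 2.09 after reversine (SE 0.29, limma adjusted p = 0.0063) and 1.32 after MG132 (limma adjusted p = 0.0145), the latter lost without control 1 (0.0542) or control 2 (0.0564) and with median-ratio scaling (0.0705). Among the genes called after reversine were the cytokine GDF15 (2.97, limma adjusted p = 0.000569) and the ceramidase ACER2 (1.24, 0.00339). The smallest adjusted p-values after MG132 were those of the matrix protein THBS1 (−5.32, limma adjusted p = 0.000268), GDF15 (2.22, 0.000446) and IER5 (0.97, 0.000736).

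Of 8 regulators of the integrated stress response, 2 rose after reversine, 1 after BafA1 and 6 after MG132, against 0.801%, 0.202% and 7.13% of all genes, and none fell. DDIT3, which encodes CHOP, rose by 1.67 after reversine (limma adjusted p = 0.000569) and by 4.08 after MG132 (limma adjusted p = 2.29e-06), from 20.3 to 23.9 FPKM in controls to 319 to 422 after MG132. ATF3, a factor downstream of ATF4, rose by 2.06 after reversine (limma adjusted p = 0.00245) and by 2.2 after MG132 (limma adjusted p = 0.000342). PPP1R15A and ATF4 rose by 1.83 and 1.49 after MG132 (limma adjusted p = 4.3e-05 and 0.000141). DDIT4, an mTORC1 inhibitor, rose by 2.37 after BafA1 (limma adjusted p = 0.00101) and by 1.06 after MG132 (limma adjusted p = 0.00252). All reversine calls named in these wider lists were lost in the fit of reversine and control alone (TP73 at 0.115, CDKN1A at 0.101, GDF15, ACER2 and DDIT3 at 0.0772, ATF3 at 0.0841). On log2(FPKM + 0.1), the differences of genes at low FPKM were larger: 2.11 for ACER2 after reversine, and 3.48 for GDF15 and −2.87 for TP73 after MG132. The part of these regulators in the values of SESN2 and TNFRSF10B was not tested.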

How the data were processed

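The authors' deposited table held 53361 gene rows by 12 libraries; its header names no unit, and the values were read as FPKM because column totals, 962891 to 2057717, differed between libraries. The authors made these FPKM with Bowtie 1.0.0 for alignment and RSEM 1.2.6 for quantification, and hg19 (GRCh37) as the build, per the submitters' processing notes. The 30712 rows that reached 1 FPKM in 3 or more libraries were tested with limma 3.58.1 (R 4.3.3, trend) on log2(FPKM + 1), with 4 groups in 1 fit, 8 residual and 1.26 prior degrees of freedom, and Benjamini-Hochberg adjustment over all rows. The fit was checked on simulated data with independent normal noise for each gene and 200 genes changed. These data had no GC trend and the same spread in every group, so the check does not cover such features of the real libraries. Groups follow the labels, and replicate numbers follow the record order. GC content and length came from GENCODE v29 transcripts, for 82.5% of tested rows, and no coordinates of it were used.

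The members and gene lists were chosen with earlier results of these data known. The text gives every member, CDKN1A, and the 3 called genes with the smallest adjusted p of each wider list, except that some genes chosen by this rule are not reported here; marker genes were chosen after their values were seen. Alternatives were log2(FPKM + 0.1), no filter, median-ratio scaling, correction for GC content and length (splines with 5 degrees of freedom), a fit of the 2 groups compared, omission of the 4 libraries and of each library. Median-ratio scaling used tested genes above 0 in every library, as planned; a version on genes averaging 5 FPKM or more was added after the counts of the planned version had been seen. Near-identical copies and overlapping genes are uncertain, since no strand setting is given in the sources used here.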

Additional observations from a re-analysis of the deposited data

How the results depend on the processing

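The numbers of the 32 genes and of all genes that were called moved with the setting. With GC and length correction, 1103 genes of all 25349 were called after reversine and 209 after BafA1, and of the 32 genes 15 and 2. In reversine against BafA1 it called 13 of the 32 and 562 of all genes. In reversine against MG132 it called 12 and 2499, and in MG132 against BafA1 13 and 4024. A fit of the 2 groups compared called 11 genes after reversine, 19 after BafA1 and 2750 after MG132, and of the 32 genes 0, 0 and 4. In reversine against BafA1 such a fit called 0 of the 32 and 2 of all genes. In reversine against MG132 it called 1 and 256, and in MG132 against BafA1 3 and 1413. Without the 4 libraries, 44 genes were called after BafA1 and 2576 after MG132, and of the 32 genes 10 after reversine and 0 after BafA1. With log2(FPKM + 0.1) 2 of the 32 and 105 of all 30712 genes were called after BafA1. No filter, over 52472 genes, gave 0 of the 32 and 68 genes after BafA1. In reversine against BafA1 it gave 3 of the 32 and 318 genes. The cause was not tested, except that fits of fewer libraries have fewer degrees of freedom.

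Scaling moved the split of calls, and the version chosen later turned it for reversine and MG132. As planned, median-ratio scaling called 437 genes after reversine (190 higher, 247 lower), 42 after BafA1 (33 and 9) and 4051 after MG132 (1099 and 2952), against 246 and 396, 62 and 19, and 2191 and 2357 without scaling. Of the 32 genes it called 5 after reversine, 0 after BafA1 and 6 after MG132, 3 higher and 3 lower. The version on genes of at least 5 FPKM, chosen after seeing these counts, called 649 (348 and 301), 81 (66 and 15) and 5321 (2929 and 2392), and of the 32 genes 7, with FAS added, 0 and 10. For reversine against MG132 the split was 1082 higher and 917 lower without scaling, 1531 and 418 as planned, and 1338 and 768 with that version. Leaving out 1 library at a time, 247 to 584 of all 30712 genes and 4 to 8 of the 32 were called in reversine against control. In BafA1 against control it was 19 to 34 genes and 0 of the 32 every time. MG132 against control gave 2435 to 13044 genes and 5 to 16 of the 32. Reversine against BafA1 gave 142 to 317 genes and 2 to 6 of the 32. Reversine against MG132 gave 965 to 17097 genes and 5 to 12 of the 32. MG132 against BafA1 gave 1855 to 18444 genes and 3 to 15 of the 32. In every comparison that includes MG132, the highest counts of both kinds came without MG132 1.

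No paired analysis was possible because the labels give no replicate numbers and those used follow the order of the records. FPKM hold no read counts, so no counting interval can be given. TM7SF3, a further target called higher after MG132 (0.61), was −0.09 after GC and length correction.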
